A study of Mus musculus with 13 samples.

Results

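The contractile apparatus of smooth muscle was followed across the esophagus of carcinogen-treated mice through 10 genes, Myh11, Acta2, Actg2, Cnn1, Smtn, Lmod1, Tagln, Synm, Mylk and Myocd, chosen by name from a table of 20054 genes. Whole-esophagus RNA came from 7 libraries of dblGATA mice and 6 libraries of wild-type (WT) mice on a C57/BL6 background. The dblGATA allele deletes, in the germline, a palindromic GATA motif upstream of Gata1, and such mice fail to make eosinophils. Mice of both genotypes had received 4-nitroquinoline 1-oxide (4-NQO), a carcinogen that is given to mice to induce squamous tumours of the mouth and esophagus, for 8 weeks, followed by 8 weeks of propylene glycol, the vehicle. The labels name this stage pre-cancer, and no group without carcinogen enters the comparison. No source used here gives the age or sex of the animals. Nor do the labels state that libraries and animals match one to one, so p-values reflect variation among these libraries, part of which may be technical.

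Smooth muscle contracts when calcium activates myosin light chain kinase, which phosphorylates myosin and lets it pull on actin filaments anchored in dense bodies rather than in sarcomeres. Most genes of this apparatus are switched on by serum response factor (SRF) bound to CArG boxes together with its coactivator myocardin. In the mouse the outer muscle coat of the esophagus is largely striated, and smooth muscle is found in the muscularis mucosae, in vessel walls and toward the stomach. In whole-tissue RNA, fewer smooth muscle cells and less RNA per cell cannot be told apart.

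Promoter sequences show where the letters bound by these factors lie in the genes followed here. The RefSeq promoter table of build GRCm38.p6, which is not stated to be the build of the deposited counts, held 6 of the 10 genes (Acta2, Cnn1, Lmod1, Mylk, Smtn and Synm), each as 250 bases before and 50 bases after an annotated start, read 5′ to 3′ on the strand of the gene. None of the 6 had a CArG box in its strict form (CC, a run of 6 letters that are A or T, then GG), which 1.63% of 32851 such windows hold. A form with 1 C or G in that run was present in Acta2 and Synm and in 8.5% of all windows. The letters CATTCC, the core of the MCAT element bound by TEAD factors, stood on either strand in 4 of the 6 windows, Acta2, Lmod1 and Smtn among them, and in 14.7% of all windows. The letters TATAAA, on either strand, were in none of the 6 and in 13.6% of all windows. These searches did not overlap one another in the sequences shown, and a match is a description of letters only. The whole Acta2 window is shown because it holds both kinds of match, on chr19:34255324-34255623, minus strand, with the MCAT letters (as GGAATG, the reverse complement) first and the pair of relaxed CArG boxes after them in capitals.
Acta2: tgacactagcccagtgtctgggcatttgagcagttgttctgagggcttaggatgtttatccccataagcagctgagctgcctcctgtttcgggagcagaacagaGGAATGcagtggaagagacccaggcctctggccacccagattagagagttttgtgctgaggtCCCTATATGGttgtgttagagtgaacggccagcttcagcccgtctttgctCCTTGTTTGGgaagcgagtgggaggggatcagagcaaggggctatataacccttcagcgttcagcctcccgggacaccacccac

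Matches in Lmod1, Smtn and Synm are shown with up to 15 bases on each side, the match in capitals. The stretches lie on chr1:135324668-135324703 (plus strand, Lmod1), chr11:3539494-3539529 (minus strand, Smtn) and chr7:67759957-67759992 (minus strand, Synm).
Lmod1: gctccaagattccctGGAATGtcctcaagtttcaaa
Smtn: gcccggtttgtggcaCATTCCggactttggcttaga
Synm: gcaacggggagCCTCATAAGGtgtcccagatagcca

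Libraries held 66339087 to 98195869 counts. Levels below are CPM, counts scaled to a common library total, after TMM correction of library sizes. Gata1 had 1 to 9 counts in dblGATA libraries, against 3 to 10 counts in 5 WT libraries and 106 in WT 3, so at this depth it does not check the genotype labels. Ccr3, the eotaxin receptor of eosinophils, stood at 0.0244 to 0.387 CPM in dblGATA and at 0.251 to 1.12 CPM in WT. The ribosomal RNA gene Rn18s took 0.587% to 2.17% of counts in dblGATA libraries, against 10.1% in WT 4, 16.9% in WT 6 and 0.599% to 3.24% in the other WT libraries. The summed level of airway, cartilage and thyroid genes was at most 109.8 CPM in dblGATA, against 14313 CPM in WT 5. Most of that sum was the thyroid gene Tg, whose highest WT level was 14232 CPM. As the mean log2 CPM of the tested genes of this list, WT 3 was highest at 3.28. WT 5 had 1.62, and the highest dblGATA library, dblGATA 4, had 0.29.

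The genotypes did not differ detectably in any of the 10 genes. Within a genotype the highest library exceeded the lowest by 1.97-fold (Synm in WT) to 6.52-fold (Myh11 in WT). All 10 passed the filter on low counts, and none was called in edgeR's quasi-likelihood test (Benjamini-Hochberg adjusted p under 0.05 over 16599 genes), against 13.5% of all genes tested. None reached an unadjusted p under 0.05 either, a level that 32.4% of all genes reached. DESeq2 and limma-voom called none as well, where 22.5% and 12.1% of all genes were called. At an unadjusted p under 0.05 DESeq2 had 1 of the 10, against 36.9% of all genes, and limma-voom 0, against 30.6%. The authors' deposited table called none of the 10 either, against 18.2% of its genes. For all 10 genes the dblGATA and WT libraries overlapped, and the groups stood apart for 2.66% of genes tested. The median log2 fold change of the 10 was -0.20, with every value below 0, beside a median of -0.002 over all tested genes. The size of this median moved with single libraries: it was -0.045 without WT 4 (6 of 10 values below 0), -0.049 without WT 1 (7 of 10) and -0.46 without dblGATA 4 (10 of 10), and it was -0.091 without dblGATA 1 and -0.092 without dblGATA 3 (7 of 10 each). It stayed below 0 in all 23 alternative fits. These fits draw on the same 13 libraries, and most of the 10 genes vary together. Neither the fits nor the 10 values are therefore independent. Of all tested genes, 50.4% had a log2 fold change below 0 in the edgeR fit.

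**Figure D1:**
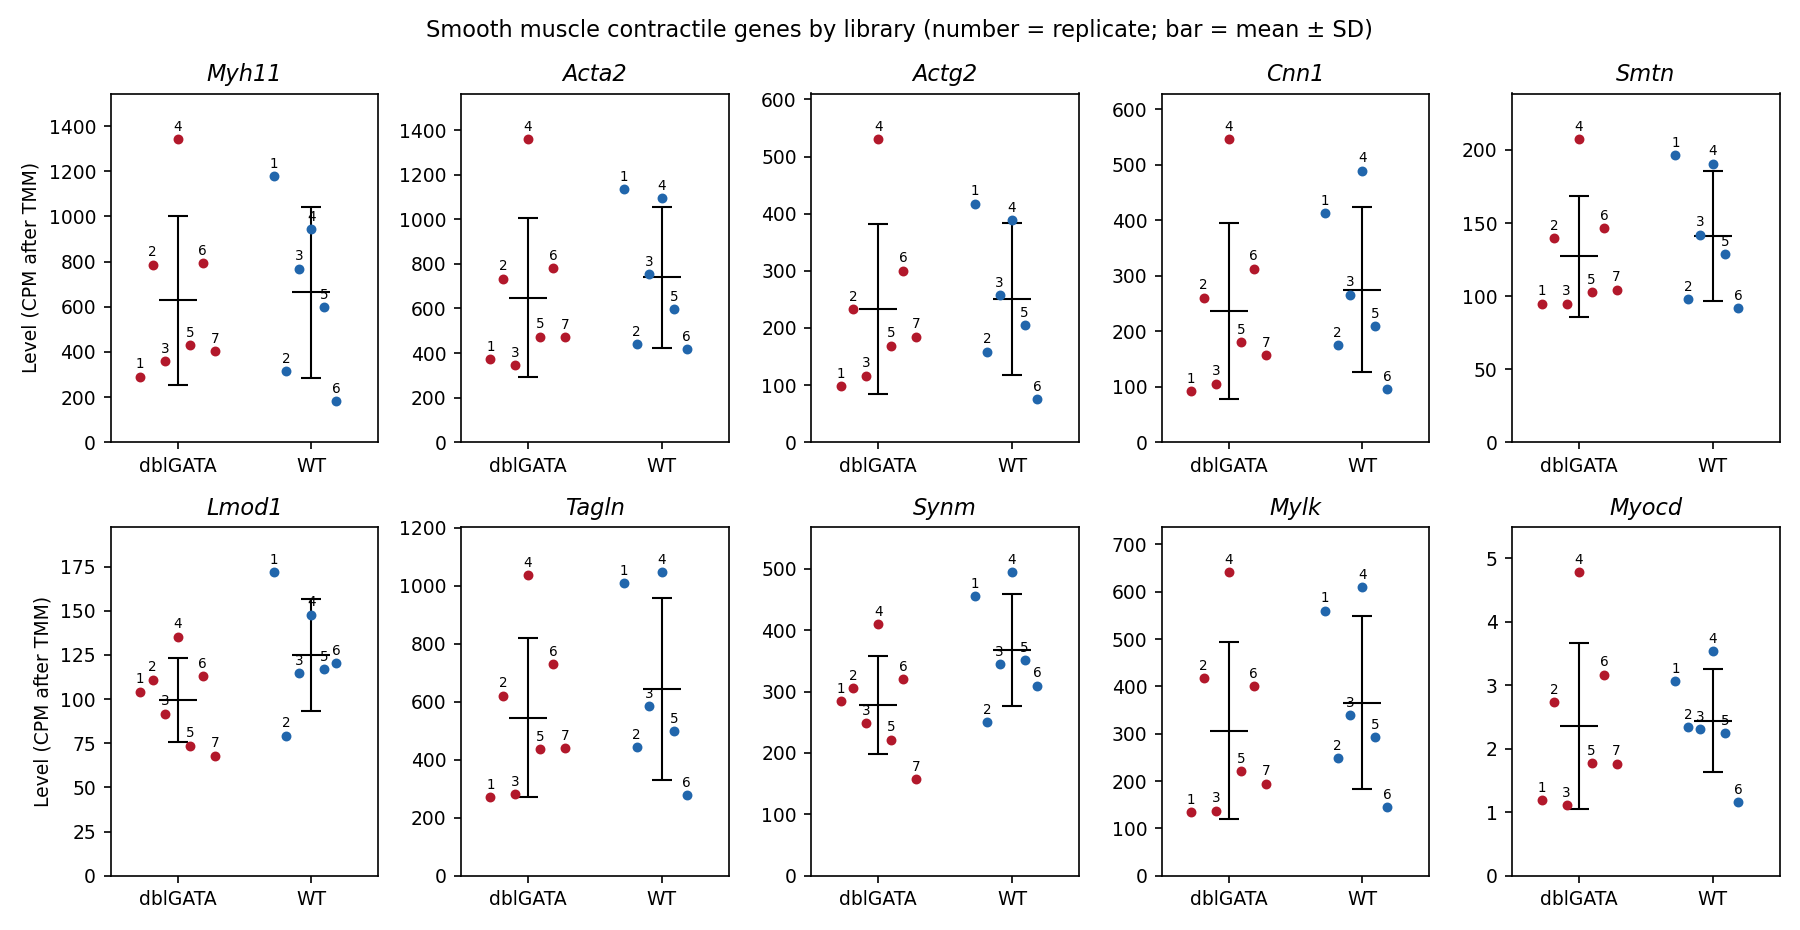
Level of each of the 10 genes (CPM after TMM, linear axes from 0) in 7 dblGATA and 6 WT libraries, with the replicate number above each point and mean ± SD as bars. The dblGATA 4, WT 1 and WT 4 libraries are at the top of most panels, and dblGATA and WT points overlap in every panel.

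Myocd encodes myocardin, the coactivator of SRF and the least abundant of the 10. It had 1.11, 1.77 and 4.77 CPM as lowest, median and highest level in dblGATA, against 1.16, 2.32 and 3.53 CPM in WT. Both the lowest and the highest of the 13 libraries were dblGATA. Its log2 fold change was -0.05 ± 0.34 (SE, adjusted p = 0.933 in edgeR). Myocd was also the gene on which the authors' scaling bore most: their factor for it departed from the library's median factor by up to 41.1%, and on their normalized signal the log2 fold change was -0.26 (limma adjusted p = 0.563).

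Acta2 and Actg2 encode the smooth muscle actins, the first found in vessels and viscera, the second typical of visceral smooth muscle. Acta2 had 344, 473 and 1361 CPM as lowest, median and highest level in dblGATA, against 416, 675 and 1135 CPM in WT, a log2 fold change of -0.19 ± 0.34 (SE, adjusted p = 0.734 in edgeR). Actg2 had 98, 185 and 531 CPM in dblGATA and 75.3, 231 and 418 CPM in WT, a log2 fold change of -0.10 ± 0.44 (SE, adjusted p = 0.895 in edgeR). The WT medians were higher while the single highest library was dblGATA 4 for both actins. The coding sequences of these actins are nearly alike and resemble those of skeletal and cardiac actin, so counting could have moved reads between them.

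Myh11 encodes the smooth muscle myosin heavy chain, the motor of this apparatus and its most specific marker. Its lowest, median and highest levels were 289.8, 429.9 and 1343 CPM in dblGATA, against 181, 684 and 1179 CPM in WT. The mean was 629 ± 374 CPM in dblGATA (SD, n = 7) and 664 ± 378 CPM in WT (SD, n = 6). The log2 fold change of -0.08 ± 0.45 (SE, adjusted p = 0.923 in edgeR) had a 95% interval of -1.04 to 0.89, so at this spread a true level in dblGATA between 0.485 and 1.85 times that of WT cannot be set aside. Without dblGATA 4 the log2 fold change was -0.38, and without WT 1 it was 0.17, which turns its direction.

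Mylk encodes myosin light chain kinase, and the same gene also yields the short product telokin, which counts per gene do not separate. It had 135, 220.3 and 641 CPM as lowest, median and highest level in dblGATA, against 144, 316 and 610.3 CPM in WT. The log2 fold change was -0.26 ± 0.42 (SE, adjusted p = 0.703 in edgeR).

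Cnn1, Tagln, Smtn and Lmod1 encode actin-binding proteins of the thin filament: calponin, which restrains myosin, transgelin (SM22), smoothelin, and leiomodin, which starts new actin filaments. Cnn1 had 91.6, 179.6 and 546 CPM as lowest, median and highest level in dblGATA, against 96.0, 238 and 489 CPM in WT (log2 fold change -0.22 ± 0.45, SE, adjusted p = 0.770 in edgeR). Tagln had 271, 439 and 1037 CPM in dblGATA, against 279, 541 and 1046 CPM in WT (log2 fold change -0.24 ± 0.36, SE, adjusted p = 0.679 in edgeR). For both genes the dblGATA and WT libraries overlapped over most of their range.

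Smtn varied less, with 94.7, 104 and 208 CPM in dblGATA against 91.9, 135 and 196 CPM in WT (log2 fold change -0.15 ± 0.22, SE, adjusted p = 0.671 in edgeR). Lmod1 had 68.0, 104 and 135 CPM as lowest, median and highest level in dblGATA, against 79.3, 119 and 172 CPM in WT. Of the 7 dblGATA libraries, 1 lay above the WT median for Lmod1. Its log2 fold change was -0.33 ± 0.18 (SE, adjusted p = 0.220 in edgeR), with a 95% interval of -0.71 to 0.06.

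Synm encodes synemin, an intermediate filament protein that links desmin to the membrane in smooth and in striated muscle. It had 157, 285 and 409 CPM as lowest, median and highest level in dblGATA, against 251, 348 and 494 CPM in WT, and 1 of 7 dblGATA libraries lay above the WT median. The mean was 278 ± 80.1 CPM in dblGATA (SD, n = 7) and 368 ± 91.3 CPM in WT (SD, n = 6). With a log2 fold change of -0.40 ± 0.20 (SE, adjusted p = 0.177 in edgeR) and a 95% interval of -0.83 to 0.02 it came nearest to a call. In the authors' deposited table Synm had a log2 fold change of -0.40 and an unadjusted p of 0.0489 (adjusted p = 0.162), and none of the other 9 genes had an unadjusted p under 0.05 there.

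**Figure D2:**
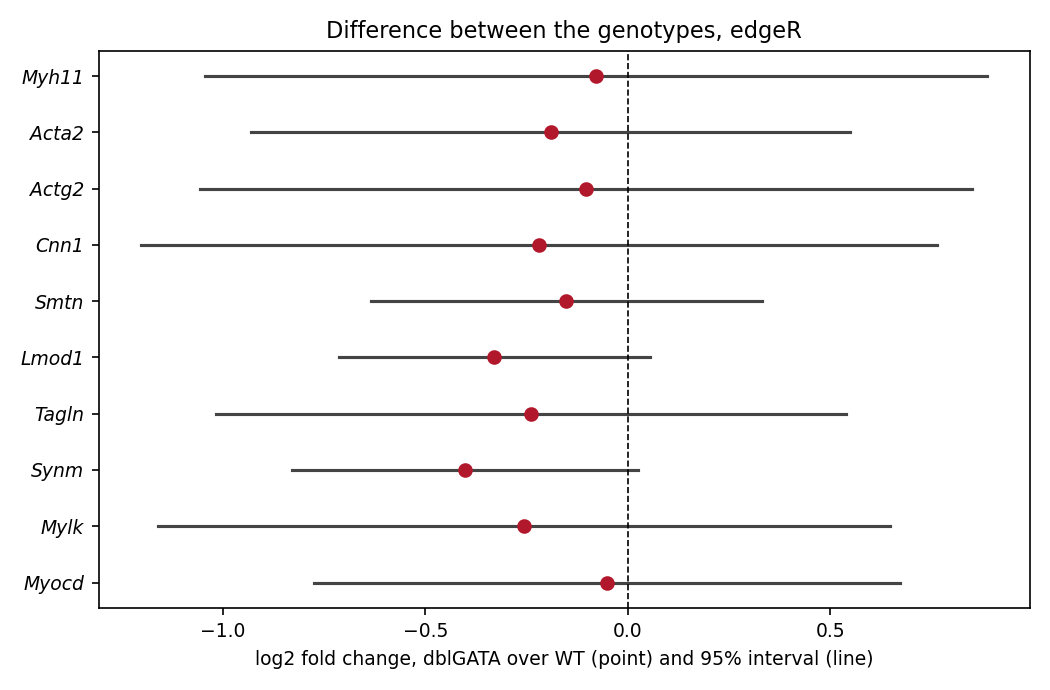
Log2 fold change of each gene, dblGATA over WT (points), with its 95% interval from the edgeR fit (lines). All 10 points lie below 0 and every interval includes 0, from -0.83 to 0.02 for Synm to -1.20 to 0.76 for Cnn1.

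The 10 genes also differed strongly among libraries of the same genotype. The biological coefficient of variation, edgeR's estimate of the spread within genotypes beyond counting error, was 0.233 for Lmod1, 0.259 for Synm and 0.285 for Smtn, and 0.428 to 0.553 for the other 7 genes. The median over all tested genes was 0.15 and the 75th percentile 0.247. Since spread depends on level, each gene was also set against the 830 genes of its own level (20 bins of mean CPM): 9 of the 10 exceeded the 90th percentile of their bin, Myocd being the exception at 0.435 against 0.446. Within dblGATA the highest library stood above the lowest by 4.64-fold for Myh11, 5.42-fold for Actg2, 5.96-fold for Cnn1 and 2.19-fold for Smtn. Within WT these ranges were 6.52-fold, 5.55-fold, 5.10-fold and 2.14-fold. Over all 13 libraries, both genotypes together, they were 7.44-fold, 7.05-fold, 5.96-fold and 2.26-fold. The median SE of the log2 fold change was 0.35 for the 10 genes and 0.11 for all tested genes.

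**Figure D3:**
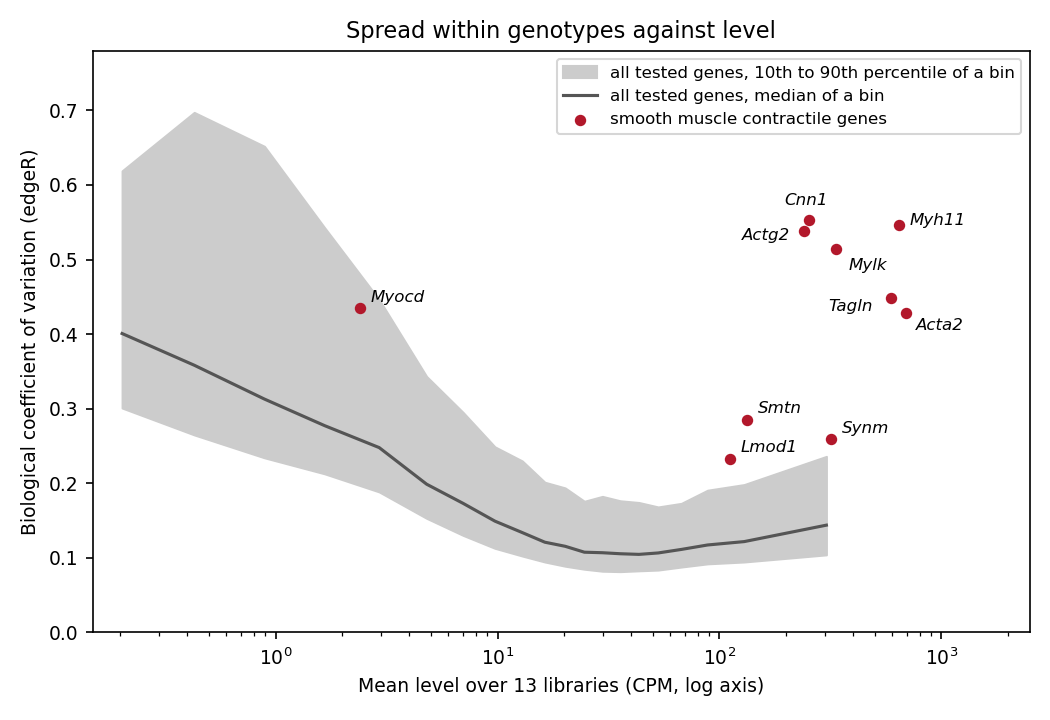
Biological coefficient of variation (vertical axis) against mean level in CPM (log axis) for the 10 genes, with the median and the 10th to 90th percentile over all tested genes in 20 bins drawn at each bin's median level. Cnn1, Myh11, Actg2 and Mylk lie above 0.5, and only Myocd lies inside the grey band.

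Most of the genes varied together across libraries. The dblGATA 4 library was the highest for 7 of the 10 genes and WT 4 and WT 1 for the other 3; dblGATA 4 and WT 4 were among the top 3 libraries for all 10 genes and WT 1 for 9. At the other end, dblGATA 1, dblGATA 3 and WT 6 were each among the lowest 3 libraries for 8 genes. The summed level of the 10 genes was 6216 CPM in dblGATA 4, against 1741 to 3898 CPM in the other dblGATA libraries. In WT it was 5541 CPM in WT 1, 5408 CPM in WT 4, and 1715 to 3572 CPM in the rest. As a share of all counts the 10 genes took 0.175% to 0.657% in dblGATA and 0.139% to 0.551% in WT. The genotypes thus each held libraries at both ends of the range.

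Lmod1 and Synm did not share this pattern in full. As log2 levels minus the mean of the gene over 13 libraries, WT 6 had 0.16 for Lmod1 and 0.02 for Synm, against -1.61 for Myh11 and -1.46 for Actg2. The lowest library of both was dblGATA 7, which held the lowest summed level of the striated muscle list as well. The same library was also lowest for the lists of smooth muscle regulators, of further thin filament and cytoskeletal genes, and of interstitial cells of Cajal. Likeness to Myh11 was measured as the root mean square difference of log2 levels, each centred on its own mean, over 13 libraries. Levels were not scaled to equal spread, so a gene that varies less than Myh11 scores above 0 even where both rise and fall together. This difference was 0.21 for Actg2, 0.28 for Cnn1, 0.30 for Mylk, 0.32 for Tagln and 0.34 for Acta2. It was 0.40 for Myocd and 0.46 for Smtn, but 0.65 for Synm and 0.68 for Lmod1. The median over other genes of at least 1 CPM was 0.86. Smtn, Synm and Lmod1 also had lower biological coefficients of variation (0.285, 0.259 and 0.233) than Myh11 (0.547). The measure does not separate smaller variation from a different pattern, so these values do not rank likeness of pattern alone.

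By the same measure, the 5 genes outside the list closest to Myh11 were Cald1, which encodes the actin-binding protein caldesmon, Kcnmb1, a subunit of the calcium-activated potassium channel of smooth muscle, Rspo3, a secreted enhancer of Wnt signalling, Myl9, a regulatory myosin light chain, and Mcam, an adhesion molecule, at 0.30 to 0.34. Closest to Acta2 were Nacad, Ckb (a creatine kinase), Adcy5 (an adenylyl cyclase), Cald1 and Cacna1h (a calcium channel subunit), at 0.13 to 0.16, against a median of 0.66. Cald1 was the only gene on both lists of 5.

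**Figure D4:**
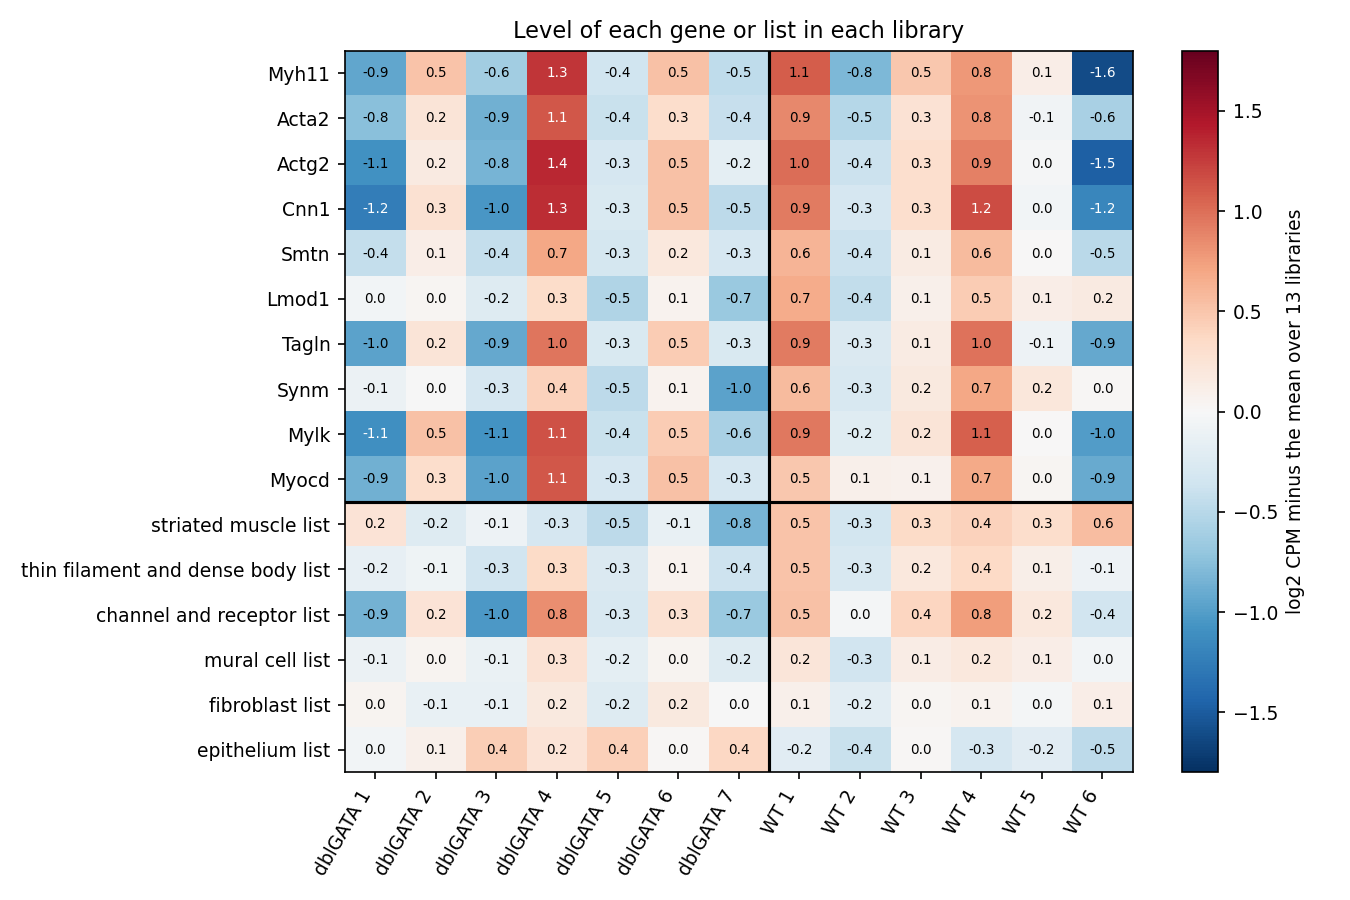
Log2 CPM of each gene, or mean log2 CPM of each marker list, minus its mean over 13 libraries (rows), in each library (columns, dblGATA left of WT). The 3 columns dblGATA 4, WT 1 and WT 4 are red for nearly all smooth muscle rows, while WT 6 is blue for Myh11 and Actg2 and red for the striated muscle list.

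Levels of different genes were compared per kilobase of the longest protein-coding transcript of each gene in GENCODE M21. Tagln averaged 342 ± 172 CPM per kilobase in dblGATA (SD, n = 7) and 403 ± 197 in WT (SD, n = 6), and Acta2 318 ± 175 in dblGATA and 363 ± 155 in WT. Actg2 followed with 175 in dblGATA and 188 in WT, then Cnn1 with 99.1 in dblGATA and 115 in WT and Myh11 with 96.1 in dblGATA and 101 in WT. In both genotypes Synm, Mylk and Smtn lay close together: they had 35.6 to 39.2 CPM per kilobase in dblGATA and 41.7 to 47.0 in WT, Lmod1 had 25.2 in dblGATA and 31.7 in WT, and Myocd 0.461 in dblGATA and 0.477 in WT. Tagln and Acta2 differed in both genotypes by less than the larger of their SDs, as did Actg2 and Cnn1, and Cnn1 and Myh11.

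Ratios between members within a library need no scaling between libraries, and 4 of them were compared between the genotypes with an exact permutation test (two-sided). The count ratio of Actg2 to Acta2 was 0.349 ± 0.0470 in dblGATA (SD, n = 7) and 0.325 ± 0.0713 in WT (SD, n = 6), exact permutation p = 0.551 and 0.734 adjusted over the 4 ratios. WT 6 stood at 0.181, against 0.342 to 0.368 in the other WT libraries. The ratio of Myh11 to Acta2 was 0.952 ± 0.106 in dblGATA and 0.845 ± 0.237 in WT (exact permutation p = 0.306, adjusted 0.612), again with WT 6 lowest at 0.434. The ratio of Tagln to Acta2 was 0.849 ± 0.0838 in dblGATA and 0.855 ± 0.123 in WT (exact permutation p = 0.974, adjusted 0.974).

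The ratio of Cnn1 to Myh11 was 0.364 ± 0.0493 in dblGATA and 0.442 ± 0.103 in WT, a difference of -0.26 on the log2 scale, with all 7 dblGATA libraries below the WT median (exact permutation p = 0.119, adjusted 0.476). WT 2, WT 4 and WT 6 had ratios of 0.557, 0.519 and 0.531, and the other 3 WT libraries 0.346 to 0.350. The same 3 libraries had the lowest WT ratios of Myh11 to Acta2 (0.713, 0.862 and 0.434) and the highest shares of Rn18s (3.24%, 10.1% and 16.9%). The part of Rn18s in these ratios was not tested.

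**Figure D5:**
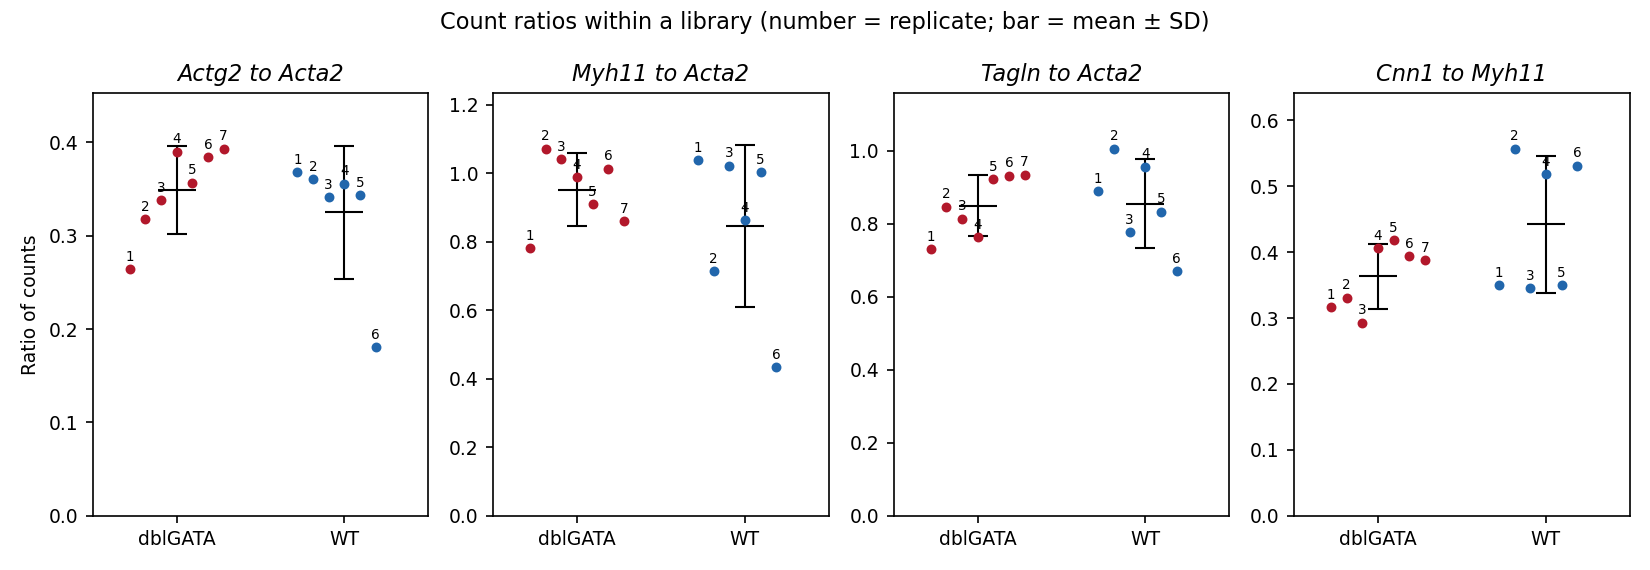
Ratio of counts of Actg2, Myh11 and Tagln to Acta2 and of Cnn1 to Myh11 in each library (points with replicate number, mean ± SD as bars, linear axes from 0), dblGATA left of WT. WT 6 is the lowest point in the first 3 panels, and WT 2, WT 4 and WT 6 lie above 0.5 in the last.

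Of 54 other genes in 3 lists drawn up for smooth muscle, 2 rose and 7 fell in dblGATA (edgeR). With both directions together, this share of 16.7% called was near the 13.5% of all tested genes. By direction the calls leaned lower, while of all tested genes 7.1% were higher and 6.39% lower. Not all of the 54 are particular to smooth muscle: Lmod2, for one, is the leiomodin of striated muscle. Without WT 2, 1 of the 54 was higher and 15 were lower, and without WT 1, WT 4, WT 6, or dblGATA 2, 3, 5 or 7, none was higher and 1 to 3 were lower. Calls over all genes moved as well, from 2239 of 16599 to 3828 of 16696 without WT 2. Without the other libraries named they numbered 357 (WT 6) to 1638 (dblGATA 2). Of 17 regulators and signalling genes, 2 rose and 2 fell in dblGATA (edgeR, median log2 fold change -0.08), against 7.1% of all tested genes higher and 6.39% lower (1179 and 1060 genes, or 830 and 1299 with upper-quartile scaling). Mrtfa and Mrtfb, SRF coactivators of the myocardin family that respond to actin, rose, with log2 fold changes of 0.21 ± 0.06 and 0.17 ± 0.05 (SE, adjusted p = 0.0461 and 0.0414 in edgeR). Mrtfb was at 46.1 to 54.0 CPM in dblGATA and 41.1 to 48.1 CPM in WT. Tead1, a factor that binds MCAT elements, fell by 0.36 ± 0.09 on the log2 scale (SE, adjusted p = 0.0264 in edgeR), with 129 ± 13.8 CPM in dblGATA (SD, n = 7) and 165 ± 19.8 CPM in WT (SD, n = 6).

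Mef2c, a transcription factor of smooth, cardiac and skeletal muscle, fell by 0.58 ± 0.12 on the log2 scale (SE, adjusted p = 0.0189 in edgeR), with 184 to 324 CPM in dblGATA and 301 to 409 CPM in WT. The Mef2c call was lost without WT 6 (adjusted p = 0.0505), and that of Tead1 without WT 1, WT 4, WT 6, dblGATA 5 or dblGATA 7 (up to 0.0664). Mrtfa lost its call without WT 1, WT 2, WT 4, WT 6, or dblGATA 2, 3, 4, 5 or 7 (up to 0.119), and Mrtfb without WT 1, WT 3, WT 4, WT 6, or dblGATA 2, 3, 5 or 7 (up to 0.0999). With upper-quartile scaling neither Mrtfa nor Mrtfb was called (edgeR adjusted p = 0.0765 and 0.0702), and on the authors' normalized signal neither was (limma adjusted p = 0.155 and 0.0517). Mrtfa also lost its call with size factors from DESeq2 (edgeR adjusted p = 0.0549) and in limma-voom (adjusted p = 0.0512).

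Of 25 further genes of thin filaments, dense bodies and the cytoskeleton, 4 fell and none rose (edgeR, median log2 fold change -0.26). Of all tested genes 6.39% were lower and 7.1% higher. DESeq2 called 10 of the 25, all lower, where 22.5% of all genes were called. The 4 called in edgeR were Des, which encodes the muscle intermediate filament desmin, the tropomyosins Tpm1 and Tpm2, and Lmod2, the leiomodin of striated muscle. Their log2 fold changes were -0.54 ± 0.15, -0.48 ± 0.15, -0.49 ± 0.14 and -0.65 ± 0.17 (SE, adjusted p = 0.0332, 0.0490, 0.0393 and 0.0310 in edgeR). Striated muscle expresses all 4 of these genes. Without WT 1, WT 4, WT 6, dblGATA 2, dblGATA 3, dblGATA 5 or dblGATA 7 all 4 lost the call; Tpm1 and Lmod2 also did without WT 3, Tpm1 and Tpm2 without dblGATA 4, and Tpm1 without WT 5 or dblGATA 6 (highest adjusted p = 0.111). On the authors' normalized signal the calls of Tpm1 and Tpm2 were lost (limma adjusted p = 0.0539 and 0.0535).

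Against 13.5% of all tested genes, P2rx1 alone was called among 12 channels and receptors (edgeR, list median -0.19). This ATP-gated channel, found on smooth muscle and on platelets and other blood cells, had 0.122 to 0.494 CPM in dblGATA and 0.594 to 1.62 CPM in WT. All 7 dblGATA libraries thus lay below all 6 WT libraries, which put P2rx1 among the 2.66% of genes tested whose groups stood apart. Its log2 fold change was -1.60 ± 0.34 (SE, adjusted p = 0.0179 in edgeR), and the call held whichever single library was left out (highest adjusted p = 0.0480). It was lost without WT 4 and WT 6 together (edgeR adjusted p = 0.119), a fit in which no gene of 16930 passed. With replicate number as a block in the fit P2rx1 was not called either (edgeR adjusted p = 0.0646).

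Markers of other cells that share some of these transcripts were read beside the 10 genes. edgeR called 13.5% of all tested genes, a share at which lists this short hold few calls. Of 10 vascular mural cell markers none was called, with a summed level of 441 to 627 CPM in dblGATA and 430.4 to 587 CPM in WT. None of 12 fibroblast and myofibroblast markers was called (2439 to 3309 CPM in dblGATA, 2509 to 3175 CPM in WT), none of 5 markers of interstitial cells of Cajal (60.3 to 91.7 CPM in dblGATA, 62.4 to 101 CPM in WT) and none of 8 endothelial markers (203 to 264 CPM in dblGATA, 194 to 293 CPM in WT). The mural sum was highest and the fibroblast sum was highest in dblGATA 4, the library with the highest sum of the 10 genes. No marker in any of these lists was at 0 in every library.

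Of 20 striated muscle genes, 7 fell and none rose in dblGATA (edgeR, median log2 fold change -0.53), against 6.39% of all tested genes lower. Their summed level was 23288 to 48658 CPM in dblGATA and 31651 to 59740 CPM in WT. DESeq2 called 15 of the 20, all lower, where 22.5% of all genes were called. The edgeR count moved with single libraries: it was 0 without WT 4 or without WT 6 (edgeR, 15 and 14 of 20 at an unadjusted p under 0.05). The count of lower genes was 1 without dblGATA 3, 5 or 7, 2 without WT 1 and 3 without dblGATA 2 or 4. It was 14 without dblGATA 1 and 16 without WT 2. Calls over all genes moved the same way, from 2239 of 16599 to 396 of 16729 without WT 4 and 357 of 16750 without WT 6. They rose to 2851 without dblGATA 1 and 3828 without WT 2. At an unadjusted p under 0.05 there were 4713 genes without WT 4 and 4442 without WT 6. In WT 6 the striated sum was the highest of all libraries while the sum of the 10 smooth muscle genes was the lowest, and in dblGATA 4 the striated sum was 30099 CPM while the smooth muscle sum was the highest. Of 10 epithelial genes, 6 rose and none fell (edgeR, median 0.53), against 7.1% of all tested genes higher. Their summed level was 35570 to 67592 CPM in dblGATA and 24933 to 39201 CPM in WT. Without WT 6, 3 of the 10 were called, against 357 of all 16750 genes tested in that fit. Of 6 adipocyte markers none was called (median -0.80), with 103 to 437 CPM in dblGATA and 202 to 584 CPM in WT. Without dblGATA 4, 4 of the 6 were called lower, against 1641 of all 16523 genes tested in that fit. In the other fits without 1 library none of the 6 was called. The part of these tissues in the levels of the 10 genes was not tested. Of 8 airway, cartilage and thyroid genes 5 were tested and of 6 stomach genes 1, and none was called (medians -3.46 and -1.55, with WT 5 the highest library by summed level in both). None of the lists' calls stood in the fit without WT 4 and WT 6, where no gene passed (edgeR, 3542 genes at an unadjusted p under 0.05).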

How the data were processed

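The members and gene lists were chosen with earlier results of these data known. The authors deposited whole-number counts per gene, read here as estimated counts rounded before deposit: in their normalized signal the scaling factor departed by over 10% from the library median for 25.8% of the 13122 genes whose counts reached 100 throughout. That signal, the authors' log2 fold changes, their test score and their p-values were deposited beside the counts. The submitters' processing notes list DESeq2 1.34.0. Aligner, counter, genome build and annotation: not given in the sources used here. Per the labels' protocols, libraries were stranded and poly-A selected (mean RNA integrity number 8.8).

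Genes were kept by filterByExpr (minimum count 10, total 15), scaled by TMM and tested with edgeR 4.0.16 (robust glmQLFit, glmQLFTest; R 4.3.3), tested on simulated data beforehand. SE is the log2 fold change over the root of F. Alternatives were DESeq2 1.42.0, limma 3.58.1 (voom, and trend on log2(signal + 1)), other scalings and filters, a replicate block and leaving out libraries. The named genes are the 10 members, up to 6 called genes per smooth muscle list, and Rn18s, Gata1 and Ccr3. The 5 genes closest to Myh11 and to Acta2 by root mean square difference are named too. Further genes the rule allows in other lists are given as counts. No 2 libraries of a genotype agreed within sampling noise (chi-square per degree of freedom at least 55.7). The limit of detection taken as 3 counts equals 0.0299 to 0.0526 CPM and covers counting error only. The sequence around 1 further promoter match is not reported here.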

Additional observations from a re-analysis of the deposited data

Results flagged for a closer look

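In 28 groups of values (10 genes and 4 ratios in both genotypes) the highest or lowest library was set against the rest of its genotype. Chance flags about 1 of 20 independent groups in such a comparison, and 2 were flagged. The 28 groups are not independent, since most of the genes vary together. The level of Acta2 was 1361 CPM in dblGATA 4, and the next dblGATA library had 782 CPM, a gap of 0.569 of the range of the 7 libraries against a limit of 0.568. That gap was taken on the linear scale. As log2 levels minus the mean over 13 libraries, dblGATA 4 had 1.12, dblGATA 6 had 0.32 and dblGATA 3, the lowest, had -0.86. The count ratio of Actg2 to Acta2 was 0.181 in WT 6, and the next WT library had 0.342, a gap of 0.859 of the range of the 6 libraries against a limit of 0.625. WT 6 was also the library with the highest share of Rn18s counts (16.9%).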

How the results depend on the processing

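No member was called in any of the 23 alternative fits (lowest adjusted p = 0.0747, Lmod1 without WT 2). Of 229 member values under them, 211 kept their direction and 18 turned it, 16 of these on leaving out 1 library; the cause was not tested. For Myh11 the log2 fold change was 0.00011 in limma-voom and 0.059 with the replicate block, and it ran from -0.38 to 0.17 over the fits without 1 library. Over those fits Actg2 ran from -0.45 to 0.10, Cnn1 from -0.58 to 0.026 and Myocd from -0.32 to 0.084. The median of the 10 genes was -0.46 without dblGATA 4 and -0.05 without WT 4. Myocd had no value with at least 100 counts required in every library. Of the ratios, Actg2 to Acta2 differed by -0.029 (log2) without WT 4 and WT 6 and from -0.031 to 0.20 without 1 library, and Tagln to Acta2 from -0.071 to 0.046. No ratio passed in any setting.

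Over all genes, 2239 were called in the edgeR fit reported, 3603 in DESeq2, 868 with the replicate block, 0 without WT 4 and WT 6 (edgeR; 3542 at an unadjusted p under 0.05), and 357 (without WT 6) to 3828 (without WT 2) without 1 library. Upper-quartile scaling moved the split of calls to 830 higher and 1299 lower in dblGATA, against 1179 and 1060 with TMM. Replicate numbers showed no pairing by this measure: 0 of 6 same-numbered pairs had a correlation of deviations over 0.1, and 0 of 6 dblGATA libraries correlated best with their own number. The labels state no pairing, and low correlations cannot show that there was none. With the replicate block 1 of the 54 other smooth muscle genes was higher and 5 were lower, against 2 and 7 without it; P2rx1, Tead1, Mrtfa, Mrtfb, Tpm1 and Tpm2 were then not called (edgeR adjusted p = 0.0646, 0.0655, 0.0729, 0.0628, 0.0558 and 0.0585), and 2 striated muscle genes were, against 7. Depth was not varied; Myocd, the lowest of the 10 genes, had 66 to 445 counts per library.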
